A study of Mus musculus with 6 samples.

Results

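The OAS family of the mouse was examined in immortalized bone marrow-derived macrophages (iBMDMs) in which PGAM5 was knocked down. The members are the 8 genes Oas1a, Oas1b, Oas1c, Oas1g, Oas2, Oas3, Oasl1 and Oasl2, taken by symbol from the 54532 genes listed for each library, and all 8 were found. iBMDMs are macrophages grown from mouse bone marrow and immortalized as a cell line. Control iBMDMs carried a control shRNA and PGAM5 KD iBMDMs carried an shRNA against Pgam5, a mitochondrial phosphatase, both delivered by lentivirus into cells from WT mice. Cells of both groups were given LPS at 100 ng/ml for 4 hours before poly(A) RNA-seq, with 3 libraries in each group and no untreated group. How many hairpins or infected lines stand behind each group is not given, and no group with PGAM5 restored was analysed here, so loss of PGAM5 and another difference between the infected lines cannot be told apart. Whether the replicates were separate cultures is not stated, so the p-values measure the spread between these libraries, which may be technical.

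OAS enzymes are sensors of double-stranded RNA. When bound to it they join ATP into short 2-5A chains, a second messenger of the antiviral response. Oas1-type proteins hold a single synthetase unit, while Oas2 and Oas3 hold such units in tandem. The Oasl proteins resemble OAS enzymes and end in ubiquitin-like repeats, and Oasl1 is known in the mouse as a repressor of the translation of Irf7. In macrophages, LPS acting through TLR4 induces interferon-β, which signals through JAK kinases to a promoter element, the ISRE, that many OAS genes carry.

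The promoter windows of RefSeq (build GRCm38.p6, 250 bases before to 50 bases after each start) held 6 of the 8 members, the exceptions being Oas2 and Oas1b. An ISRE core, spelled GAAA, then any 2 bases, then GAAA, and searched on both strands with overlaps allowed, was present in the windows of 4 of them, Oas1a, Oas1g, Oas1c and Oas3, against 3.44% of all 32851 windows. The matches are shown because they place members that share a stretch of promoter beside each other, with the core in capitals and 2 overlapping cores joined in Oas1a, Oas1g and Oas1c.
Oas1a, chr5:120907515-120907565, minus strand: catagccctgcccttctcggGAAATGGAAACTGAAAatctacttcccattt
Oas1g, chr5:120887601-120887651, minus strand: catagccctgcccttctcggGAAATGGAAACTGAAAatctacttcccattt
Oas1c, chr5:120812598-120812648, minus strand: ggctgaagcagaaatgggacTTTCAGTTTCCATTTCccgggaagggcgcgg
Oas3, chr5:120777710-120777754, minus strand: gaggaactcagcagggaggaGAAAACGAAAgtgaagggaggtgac
The 51 bases of Oas1a and Oas1g are identical, and the match begins 20 bases before the start of Oas1a and 18 bases before that of Oas1g. In Oas1c the core lies on the opposite strand, 114 bases before the start. Oas1b begins just beyond it on that other strand. Read toward Oas1b, the 16 bases at chr5:120812613-120812628 are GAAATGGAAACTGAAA, the same letters as in Oas1a, and begin 22 bases before the annotated start of Oas1b. The windows of Oasl1 and Oasl2 did not hold these letters. A match describes the sequence and does not show that a factor was bound there.

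All 8 members lie on chromosome 5 (GENCODE M21, GRCm38) at separate loci. Oasl2 (114896936 to 114912234) and Oasl1 (114923240 to 114937915) are neighbours on the plus strand. The other 6 members stand within 177 kb of each other and share their cluster with 4 further paralogs. In order of position they are Oas2 (120730333 to 120749853), Oas3 (120753098 to 120777661), Oas1c (120800194 to 120812514), Oas1b (120812635 to 120824163), Oas1g (120876142 to 120887613) and Oas1a (120896256 to 120907521), and all but Oas1b are on the minus strand. Oas1b is annotated as a polymorphic pseudogene, since the reference strain carries a truncated form of this flavivirus resistance gene, and the other members are protein-coding.

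The libraries held between 18163463 and 24388917 fragments, recovered from the steps of the deposited FPKM (fragments scaled to exon length and to library size). Pgam5 itself was at 17.1, 12.97 and 13.4 FPKM in control libraries and 4.33, 5.75 and 4.53 FPKM in PGAM5 KD libraries, a log2 fold change of -1.40 (standard error, SE, 0.13, limma adjusted p = 0.000358). Of 10 macrophage markers, 8 averaged at least 1 FPKM, and Mertk was at 0. Summed, these markers ranged from 2977 to 3062 FPKM in control and from 2691 to 2718 FPKM in PGAM5 KD libraries, a sum led by Lyz2 (means of 1666 and 1265 FPKM). The markers did not move one way, since of the 8 expressed ones 4 were higher, among them Cd14 (461 and 683 FPKM), 3 were lower and 1 was not called. None of the 28 markers of neutrophils, dendritic cells, lymphocytes and fibroblasts averaged 1 FPKM, and 16 of them were at 0 in every library. In bulk RNA, fewer cells that express a gene and less RNA per cell cannot be told apart.

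Oasl1 was the most abundant member in both groups and held from 61.1% to 61.5% of the summed FPKM of the family in control libraries. Below it, the order of the mean levels in control cells was Oas1a, Oas3, Oas2, Oas1g, Oas1b, Oas1c and Oasl2. Neighbours in this order did not overlap between libraries, apart from Oas1c and Oasl2. In PGAM5 KD cells the order was the same, but Oas2 and Oas1g overlapped, as did Oas1c and Oasl2, and the share of Oasl1 was between 55.3% and 56.5%. FPKM here is per base of all annotated exons, which for Oas3 is 7069 bases against 4720 in its longest coding transcript, and for Oasl2 is 6374 against 3123. Counted per base of the longest coding transcript, a scale chosen after the data were seen, Oas3 reached 35.1 FPKM in control cells beside 35.7 FPKM for Oas1a, so these neighbours then overlapped. On that scale Oasl2 (1.46 FPKM) stood above Oas1c (0.918 FPKM) in control cells, with overlapping libraries, and in PGAM5 KD cells (3.11 against 2.12 FPKM) without overlap. Oas1g then also stood above Oas2 in PGAM5 KD cells (29.0 against 27.8 FPKM), with overlapping libraries.

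**Figure D1:**
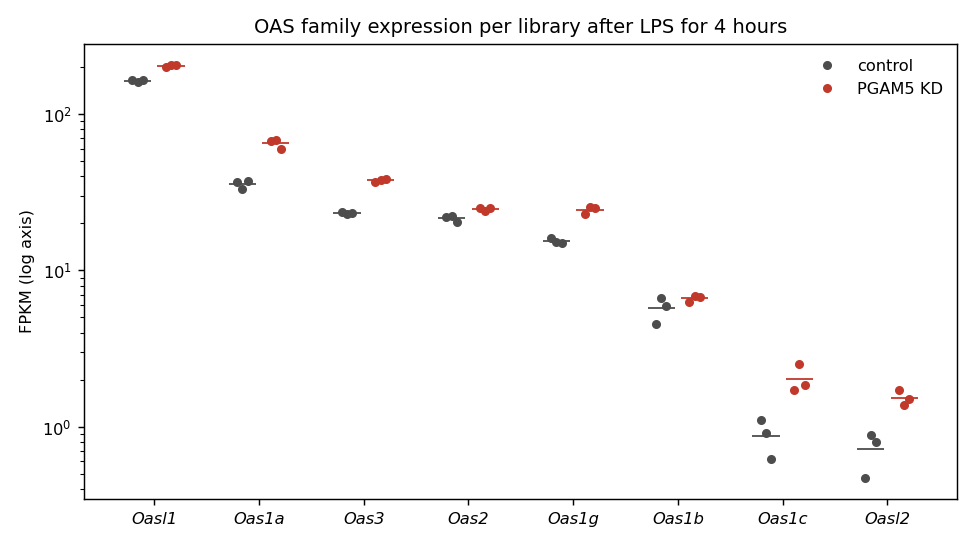
FPKM of the 8 members in each library on a log axis, with control libraries in grey, PGAM5 KD libraries in red and horizontal lines at the group means. The PGAM5 KD points lie above all control points for every member except Oas1b, and the members span from 0.466 FPKM (Oasl2, control) to 208 FPKM (Oasl1, PGAM5 KD).

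Control and PGAM5 KD cells were compared to ask how PGAM5 bears on the macrophage response to LPS. Of the 8 members, 7 were higher in PGAM5 KD cells and 1, Oas1b, did not pass the threshold of an adjusted p-value under 0.05 (limma, adjusted over all 10540 genes with a mean of at least 1 FPKM). Of all genes tested, 16.8% were higher by the same rule and 31.7% were called in either direction. The libraries of 7 members did not overlap, with every PGAM5 KD value above every control value, as in 24.2% of all genes tested. Oas1c and Oasl2 averaged under 1 FPKM in control cells and passed the filter only through the PGAM5 KD group, so they had to differ to be tested. Of the 6 members above 1 FPKM in control cells, 5 were higher. The median log2 fold change of those 6 was 0.47, beside 0.013 over all genes tested. The differences were under 2-fold on the log2(FPKM + 1) scale, and 0 of the 8 members passed the study's further threshold of a log2 fold change above 1, which 0.787% of genes passed upward and 0.531% downward. With a pseudocount of 0.1 or with voom on recovered fragments, 2 members passed it, Oas1c and Oasl2.

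Oas1a, a catalytically active OAS1 enzyme, had the largest log2 fold change of the family on this scale. Its place at the top depended on the setting, since Oas1c and Oasl2 had larger values than Oas1a with TPM (0.92 and 0.80 against 0.79), with a pseudocount of 0.1 (1.13 and 1.03 against 0.87) and with voom (1.20 and 1.13 against 0.87). It was at 36.8, 33.0 and 37.2 FPKM in control libraries and at 67.9, 68.1 and 59.8 FPKM in PGAM5 KD libraries. The lowest PGAM5 KD library was well above the highest control library. The log2 fold change was 0.85 (SE 0.07, limma adjusted p = 0.000199), and 1.56% of all genes tested had a larger one.

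Oas1g, its closest paralog, was at 16.2, 15.2 and 14.97 FPKM in control libraries and at 22.9, 25.5 and 25.1 FPKM in PGAM5 KD libraries. The groups did not overlap, and the log2 fold change was 0.63 (SE 0.06, limma adjusted p = 0.000315). The longest coding transcripts of both genes are 97.6% identical over 1861 bases, and of the 100-base windows of Oas1a, 40.9% also occur in another gene, mostly Oas1g. With 50-base windows the share was 57.6%. How the authors' counting treated fragments that map to both genes is not given, so their separate levels are uncertain. The within-library log2 ratio of Oas1a to Oas1g averaged 1.15 in control and 1.38 in PGAM5 KD cells, the libraries overlapped, and the difference of 0.23 (SE 0.10) gave an exact two-sided permutation p = 0.2 (adjusted p = 0.2 over 3 ratios). With the fragments of all 8 Oas1 genes summed, which a changed split between paralogs leaves unmoved, the log2 fold change was 0.75 (limma adjusted p = 5.19e-05).

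Oas3, whose tandem units favour long double-stranded RNA, was at 23.8, 23.1 and 23.5 FPKM in control libraries and 36.9, 37.7 and 38.5 FPKM in PGAM5 KD libraries. Replicates were close together and the groups far apart, with a log2 fold change of 0.66 (SE 0.04, limma adjusted p = 4.16e-05). Oas2, its neighbour in the genome, was at 22.1, 22.2 and 20.5 FPKM in control libraries and 25.1, 23.9 and 25.3 FPKM in PGAM5 KD libraries. Here the groups were separate by a small margin. The log2 fold change was 0.19 (SE 0.05, limma adjusted p = 0.0217). The call was lost when values were scaled to TPM (limma adjusted p = 0.119) and with replicate number as a block (limma adjusted p = 0.0557). It was also lost when control replicate 3, PGAM5 KD replicate 1 or PGAM5 KD replicate 3 was left out (highest limma adjusted p = 0.0701). The log2 ratio of Oas2 to Oas3 was -0.102, -0.053 and -0.190 in control libraries and -0.537, -0.636 and -0.588 in PGAM5 KD libraries. The ratio was lower in every PGAM5 KD library, by a difference of -0.47 (SE 0.05) with an exact two-sided permutation p = 0.1, the smallest that 3 libraries against 3 allow, and an adjusted p = 0.2 over 3 ratios.

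Oasl1, the member with the most fragments (from 7808 to 13103 in a library), was at 165, 162 and 165 FPKM in control libraries and 201, 208 and 206 FPKM in PGAM5 KD libraries. The replicates of each group lay within a few FPKM of each other, and the groups did not overlap. The log2 fold change of 0.32 (SE 0.03, limma adjusted p = 0.000277) fell to 0.22 with quantile normalization. The antisense gene Gm13822 overlaps 38 bases of Oasl1 exons and was at 12.6 FPKM in control and 14.8 FPKM in PGAM5 KD cells. Whether the counting used strand is not given.

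Oasl2, which in the mouse retains synthetase activity, was at a low level. It had 54, 113 and 99 fragments in control libraries and 240, 158 and 232 fragments in PGAM5 KD libraries, equal to 0.466, 0.879 and 0.796 FPKM and to 1.71, 1.37 and 1.49 FPKM. No control library reached the lowest PGAM5 KD library, and the mean was 2.14 times higher. The log2 fold change was 0.56 (SE 0.14, limma adjusted p = 0.0221). Oasl2 lost its call without control replicate 1 (limma adjusted p = 0.0528) or PGAM5 KD replicate 3 (limma adjusted p = 0.0646). The call was also lost with replicate number as a block (limma adjusted p = 0.0631). Without PGAM5 KD replicate 1 Oasl2 fell below the filter and was not tested. With the fragments of Oasl1 and Oasl2 summed, the log2 fold change was 0.33 (limma adjusted p = 0.000266), since nearly all of them were on Oasl1. The log2 ratio of Oasl1 to Oasl2 differed by -0.24 (SE 0.14), with overlapping libraries and an exact permutation p = 0.2 (adjusted p = 0.2 over 3 ratios). This value depended on the pseudocount of 1, since with 0.1 the difference was -0.71 and the libraries did not overlap (exact permutation p = 0.1, the smallest possible).

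Oas1c and Oas1b are transcribed away from each other from starts that are close together, with the ISRE core shown above between them. Oas1c had 48, 44 and 29 fragments in control libraries and 90, 110 and 108 fragments in PGAM5 KD libraries, equal to 1.10, 0.907 and 0.618 FPKM and to 1.70, 2.52 and 1.84 FPKM. The groups did not overlap, and its mean was 2.31 times higher, the largest ratio of means in the family. The log2 fold change was 0.69 (SE 0.15, limma adjusted p = 0.0152), with an adjusted p = 0.0501 without PGAM5 KD replicate 2. Oas1b was at 4.56, 6.69 and 5.94 FPKM in control libraries and 6.28, 6.83 and 6.77 FPKM in PGAM5 KD libraries. Control replicate 2 stood within the range of the PGAM5 KD libraries. Its log2 fold change of 0.19 missed the threshold (95% confidence interval from -0.085 to 0.47, limma adjusted p = 0.255), and it ranged from 0.061 to 0.30 with each library omitted in turn. Whether Oas1b and Oas1c differed in their change was not tested.

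**Figure D2:**
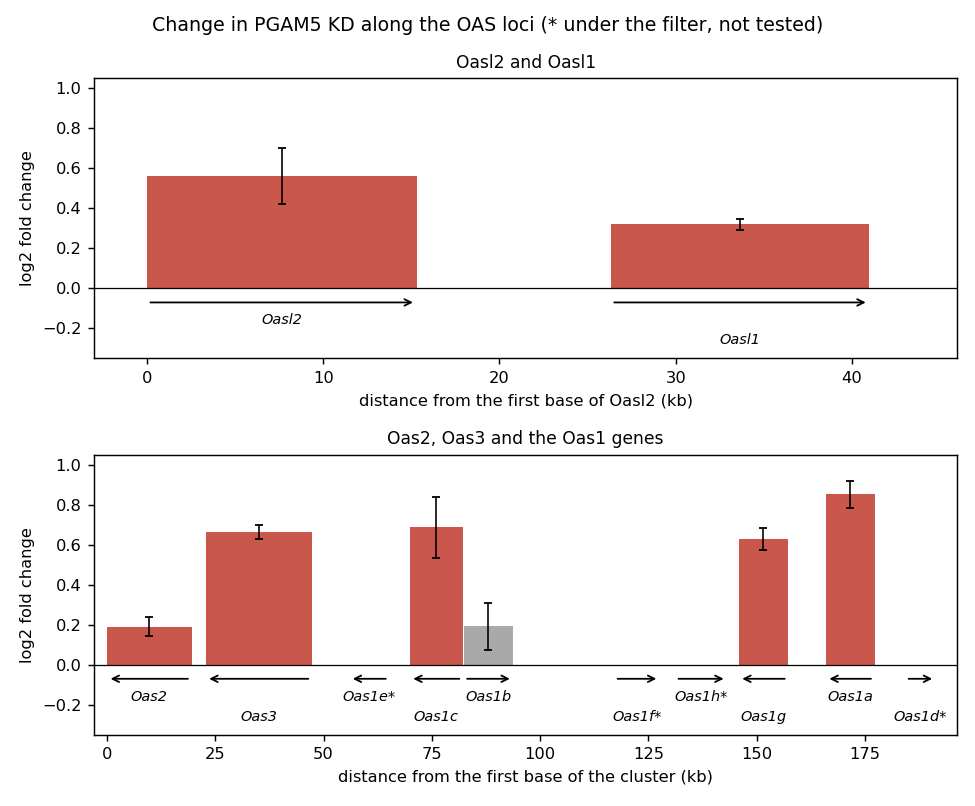
Log2 fold change (PGAM5 KD over control, on log2(FPKM + 1)) of each member, drawn as a bar over its gene body against the distance in kb along each locus, with standard errors as whiskers and arrows for the direction of transcription. Red bars passed an adjusted p-value under 0.05, the grey bar of Oas1b did not, and genes with an asterisk were under the filter. Within the Oas cluster the bars run from 0.19 for Oas2 to 0.85 for Oas1a.

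The other paralogs of the cluster were barely detected. Oas1e and Oas1f had 0 fragments in every library, which allows up to 0.0917 and 0.112 FPKM in the shallowest library (3 fragments, counting error only). Oas1d had 5 fragments in each of PGAM5 KD replicates 1 and 3 and 0 elsewhere, and Oas1h had between 4 and 19 fragments. The nearest tested protein-coding genes on each side of the loci did not pass the threshold. Around the Oasl genes they were 1500011B03Rik (73.5 kb away, log2 fold change 0.03, limma adjusted p = 0.917) and 2210016L21Rik (4.24 kb away, -0.055, limma adjusted p = 0.712). Around the members of the Oas cluster they were Rasal1 (50.7 kb away, -0.15, limma adjusted p = 0.173) and Ptpn11 (223 kb away, -0.039, limma adjusted p = 0.510).

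Genes that act on the 2-5A pathway downstream of the OAS enzymes were expressed but not called. Abce1, a ribosome recycling factor that also acts in this pathway, was at 77.5 ± 1.33 FPKM in control (SD, n = 3 in each group) and in PGAM5 KD cells at 76.2 ± 3.47 FPKM, with a log2 fold change of -0.02 (limma adjusted p = 0.697). Pde12 and Akap7, phosphodiesterases that can degrade 2-5A, had log2 fold changes of -0.11 (adjusted p = 0.188) and 0.21 (limma adjusted p = 0.158). Of the 3 genes of this list that were tested, 0 were called in either direction, with a median log2 fold change of -0.02. At an unadjusted p under 0.05, 0 of these genes passed in limma, and voom called 0 at an adjusted p-value under 0.05.

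Sensors that act beside OAS on viral nucleic acid changed unequally. Of 12 genes, 11 were tested, 7 were higher and 1 was lower, with a median log2 fold change of 0.25 beside 16.8% higher and 14.9% lower over all genes tested. The 3 RIG-I-like receptor genes were among those that rose. Ddx58, which encodes RIG-I, went from 12.3 ± 0.672 to 23.4 ± 0.523 FPKM (SD, n = 3 in each group), a log2 fold change of 0.87 (SE 0.05, limma adjusted p = 5.48e-05). Dhx58, which encodes LGP2, and Ifih1, which encodes MDA5, had log2 fold changes of 0.74 and 0.62. Zbp1, a sensor of Z-form nucleic acid, rose by 0.56 but passed the filter only through the PGAM5 KD group. Eif2ak2, the double-stranded RNA-activated kinase PKR, rose by 0.36 and Ticam1, the adaptor TRIF, by 0.25, and the RNA-editing enzyme gene Adar was also called higher. Tlr3, an endosomal receptor of double-stranded RNA, was under the filter with means of 0.308 FPKM in control and 0.701 FPKM in PGAM5 KD cells. Mavs, Cgas and Zc3hav1 were not called. Trim25, a ubiquitin ligase of the RIG-I pathway that is named here after its values were seen, fell from 84.5 to 76.7 FPKM (log2 fold change -0.14, limma adjusted p = 0.0282), a call lost in all fits that left out 1 library but that without PGAM5 KD replicate 2.

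**Figure D3:**
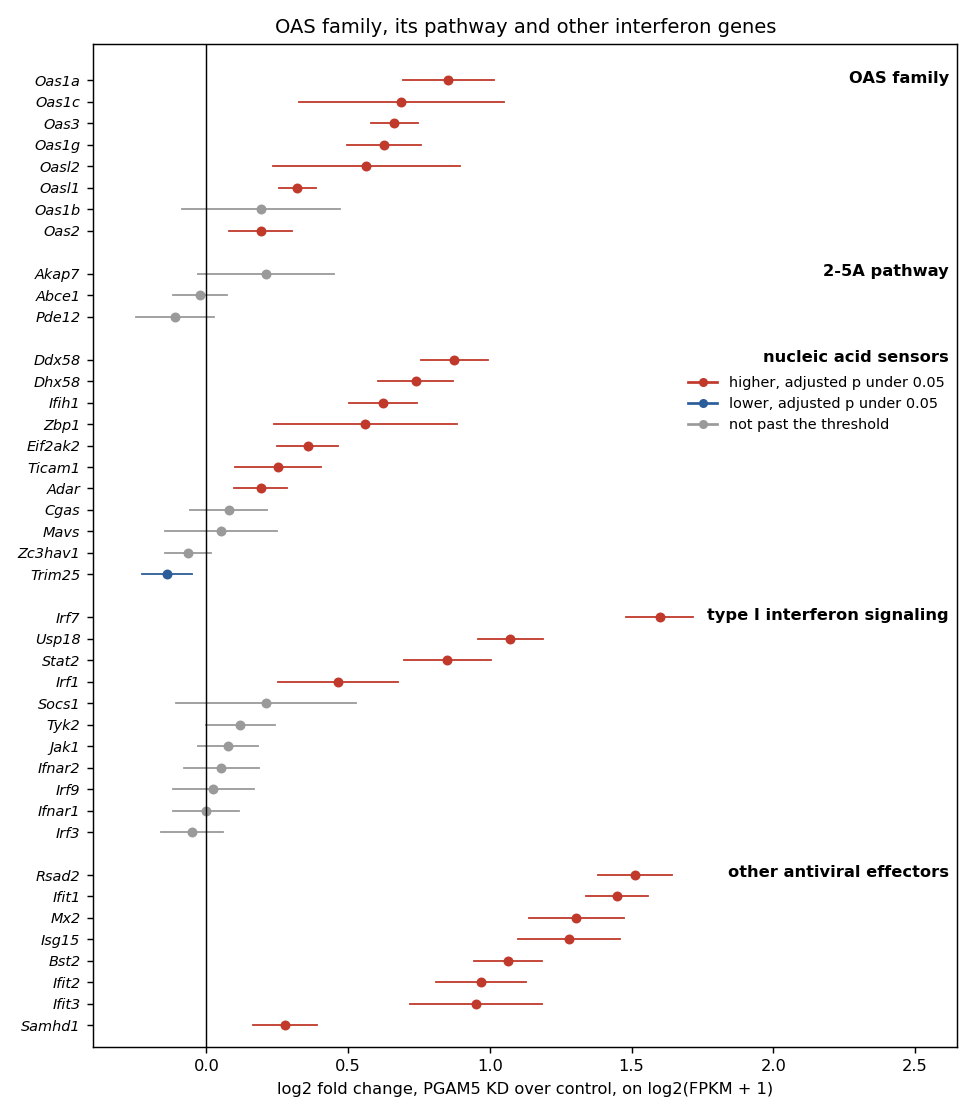
Log2 fold changes (PGAM5 KD over control, on log2(FPKM + 1)) with 95% confidence intervals for the 8 members and genes tested from 4 related lists, in red where higher and in blue where lower at an adjusted p-value under 0.05. The members lie between 0.19 and 0.85, below most of the other antiviral effectors, whose median was 1.17, and the 3 genes of the 2-5A pathway, none past the threshold, lie between -0.11 and 0.21.

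Upstream, some genes of the interferon pathway rose while its receptor and kinase genes were not called. Of 13 genes, 12 were tested, 5 were higher and 0 lower, with a median log2 fold change of 0.17, beside 16.8% higher and 14.9% lower over all genes tested. Irf7, whose translation Oasl1 represses, went from 15.2 ± 0.698 to 48.1 ± 2.05 FPKM (SD, n = 3 in each group), a log2 fold change of 1.60 (SE 0.05, limma adjusted p = 7.42e-06). Usp18, a brake on the interferon receptor, rose by 1.07, Stat2 by 0.85 and Irf1 by 0.46. Irf9, a DNA-binding factor of the ISRE, also named after its values were seen, was at 12.5 FPKM in control and 12.7 FPKM in PGAM5 KD cells (limma adjusted p = 0.796). The receptor genes Ifnar1 and Ifnar2, the kinase genes Jak1 and Tyk2, and Irf3 and Socs1 were not called either. Ifnb1 was under the filter, at 2.06, 0.661 and 0.615 FPKM in control libraries and 0.425, 0.514 and 1.26 FPKM in PGAM5 KD libraries, with between 7 and 28 fragments in a library and overlapping groups.

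Of 9 other interferon-induced antiviral effectors, 8 were tested and 8 were higher, with a median log2 fold change of 1.17 and 5 above 1. Over all genes tested, 16.8% were higher and 0.787% were higher with a log2 fold change above 1. Rsad2, which encodes viperin, rose by 1.51, Ifit1 by 1.45, Mx2 by 1.30, Isg15, a ubiquitin-like modifier, by 1.28, Bst2, the virion tether tetherin, by 1.06 and Ifit2 by 0.97. Mx2 is annotated as a polymorphic pseudogene, as Oas1b is. Mx1, which is defective in many laboratory strains, was under the filter with at most 20 fragments in a library. Whether the OAS members rose less than these genes was not tested. The genes whose profile over the 6 libraries was most like the mean log2(FPKM + 1) of the 8 members were Rsad2 (Pearson r = 0.9997), Thyn1 (0.9994), Herpud1 (0.9993), Il6 (0.9993) and Spp1 (0.9992). The difference between the groups sets most of these values, and 674 of the 10532 other genes had r of at least 0.95. Il6 averaged 0.464 FPKM in control and 7.38 FPKM in PGAM5 KD cells, so it passed the filter only through the PGAM5 KD group. By qPCR the paper reports the opposite direction, with less Il6 mRNA induced by LPS in PGAM5 KD cells.

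**Figure D4:**
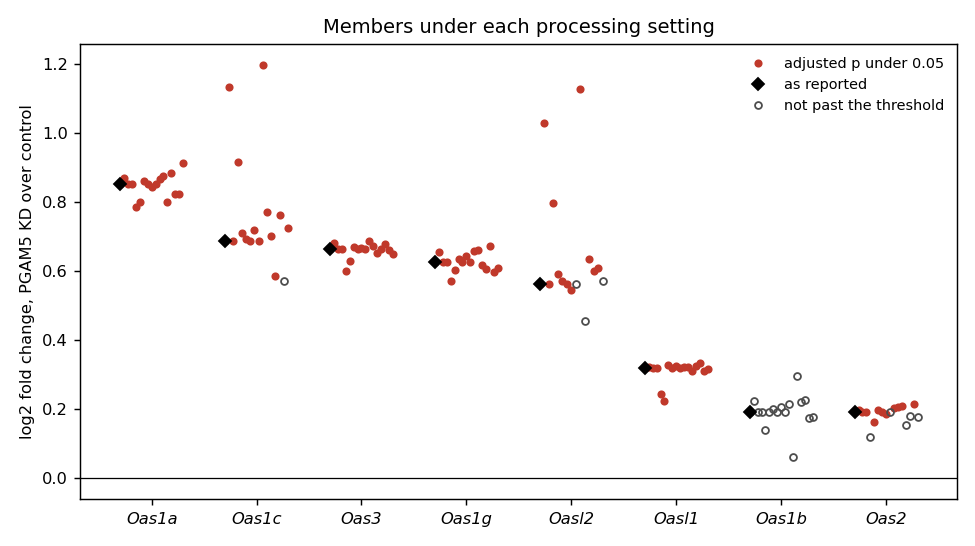
Log2 fold change of each member as reported (diamond) and under each other processing setting, filled where the adjusted p-value was under 0.05 and open where it was not. All values were above 0, those of Oas1c and Oasl2 reached 1.20 and 1.13, and those of Oas1a, Oas3, Oas1g and Oasl1 were past the threshold in each setting.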

How the data were processed

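The authors deposited FPKM, 1 table per library (3 control and 3 PGAM5 KD iBMDM libraries), with HISAT2 2.0.5, featureCounts 1.5.0-p3 and build mm10 named in the submitters' processing notes. The annotation and the multi-mapping and strand settings were not given in the sources used here. Of the gene identifiers, 54495 were in GENCODE M21 and 37 were not. FPKM multiplied by exon length gave whole fragments within 0.01 for 96.8% to 97.1% of values under 1000 fragments. Log2(FPKM + 1) of genes with a mean of at least 1 FPKM was compared by two-sided limma tests (limma 3.58.1, R 4.3.3) with a mean-variance trend. The p-values were adjusted over all genes by the Benjamini-Hochberg method. The fit was tested on simulated data with larger changes than those of the members, so that test does not cover changes of their size. Paralog identity came from blastn 2.17.0. Tables and figures used Python 3.11.15, pandas 2.3.3 and matplotlib 3.10.9. Replicates differed by more than sampling noise (chi-square between 5.06 and 8.92 per degree of freedom). The members, lists and tests were chosen with earlier results of these data known. Named genes are the members, Pgam5, the paralogs of the Oas1 cluster, the lists, neighbouring or overlapping genes, markers at 0 and the most abundant marker, and the 5 genes most like the members over the libraries. Cd14, Trim25 and Irf9 were named after their values were seen. Alternatives were a pseudocount of 0.1, no filter, a mean of at least 5 FPKM, TPM, quantile normalization, median centring, no trend, array weights, a replicate block, voom on recovered fragments, summed paralogs and leaving out each library. Some genes of the lists are counted but not reported singly here. The deposited unit is FPKM, so no count model gave a main result, and recovered fragments were modelled only in the voom alternative.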

Additional observations from a re-analysis of the deposited data

How the results depend on the processing

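The direction of all 8 members was kept under every alternative in which they were tested, and Oas1a, Oas1g, Oas3 and Oasl1 kept their call. The number of members called higher ranged from 5 to 7, also when each library was left out. Over all genes, 1771 were higher and 1575 lower, and with TPM 1088 were higher and 2282 lower, so that 52.9% and 32.3% of the calls were upward, while the median of all genes moved by -0.074. Counts past a log2 fold change of 1 were 83 higher and 56 lower, 154 and 107 with a pseudocount of 0.1, 175 and 108 with voom, and 49 and 27 at a mean of at least 5 FPKM, and with TPM 116 were lower. Of the members, 0 passed it as reported and 2 with a pseudocount of 0.1 and with voom. The cause of these shifts was not tested. Of the sensors, 1 was lower as reported, 2 with TPM, 0 without the mean-variance trend and from 0 to 1 when each library was left out. At a mean of at least 5 FPKM, 3 in place of 5 interferon signaling genes were higher, since fewer genes were tested. With a pseudocount of 0.1 the ratio of Oasl1 to Oasl2 differed by -0.71 (exact permutation p = 0.1, the smallest possible). Leaving out a library moved it between -0.32 and -0.13, as a value with no test.

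Whether replicate numbers pair the samples is not given. Deviations of same-numbered libraries correlated between -0.052 and 0.016, which with 3 libraries in each group cannot exclude a pairing. With the replicate block, 1440 genes were higher and 1212 lower, 5 members were higher, Oas2 and Oasl2 had adjusted p-values of 0.0557 and 0.0631 from limma, and 0 sensors were lower. Oas1c and Oasl2 had few fragments, at most 110 and 240 in a library.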
